A study of Ovis aries with 16 samples.

Results

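Hypothalamic transcripts of 8 sheep fetuses that had all undergone brachiocephalic occlusion (BCO) were compared by prior estradiol exposure, 4 fetuses with estradiol+BCO against 4 with BCO and no other treatment. These 8 arrays are all those whose sample titles name the occlusion, out of 16 arrays in the series. Brachiocephalic occlusion closes the artery that carries blood to the head and forelimbs of the fetus, and here it lasted 10 min and was followed by 50 min of recovery. Estradiol was given at 250 ug per day for 5 days. The remaining 8 arrays, 4 from estradiol fetuses and 4 from control fetuses, came from animals with a sham occlusion. They enter below in the shared estimate of spread, in the choice of probes tested and as side values. They also enter the comparison of the estradiol difference between occluded and sham fetuses. Every fetus in all groups carried chronic catheters, had blood samples drawn around the occlusion or sham period, and was studied at 124 to 128 days of gestation, term being 147 days. Total RNA had integrity numbers from 7.4 to 8.4 over the series. The hypothalamus was collected 1 h after that period began. Each array is labelled as a separate replicate, and the sex of the fetuses and any shared dam are not used here.

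The hypothalamus links the nervous system to the pituitary. Its neurosecretory neurons make oxytocin, growth hormone-releasing hormone, somatostatin and gonadotropin-releasing hormone, and arcuate neurons make the feeding peptides AGRP, NPY and POMC. Estradiol acts through nuclear receptors encoded by ESR1 and ESR2, which are present in parts of the hypothalamus and alter transcription of their target genes. Interrupted blood flow to the fetal head is a strong stimulus to the hypothalamus and pituitary, and immediate early genes such as FOS are a usual readout of neuronal activation within the hour.

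Signals are given as log2 of the processed intensity minus the 75th percentile of the array, so that 0 is that percentile and each step of 1 doubles the signal. Over the 8 arrays the 75th percentile lay between 2258 and 2497 intensity units, and 81.1% to 85.8% of probes were well above background. Arrays sat on 2 slides, replicates 1 and 2 of every group on slide 1 and replicates 3 and 4 on slide 2. Of the neuropeptide list, 15 of 32 genes had a tested probe, and all 15 were well above background on at least 3 of 4 arrays in estradiol+BCO fetuses against 13 in BCO fetuses. The array had no tested probe for any of the 20 general neuronal or the 12 oligodendrocyte markers sought, so the share of those cells could not be read. Estradiol+BCO replicate 1 stood apart, with far higher interferon-stimulated transcripts than the other 7 arrays. Immune and matrix results that rest most on it are given with and without it. In such tissue RNA, fewer cells of a type and less RNA per cell cannot be told apart.

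Many genes discussed here were read by a pair of probes whose sequences nearly coincide, so agreement within a pair is not a second independent measurement. The 60-base probes for growth hormone-releasing hormone, galanin and the glutamate receptor subunit GRIN1 show this, and each has at least 1 reading frame without a stop. They are copied from the deposited scanner files, with the bases that both probes of a pair share in capitals.
GHRH A_70_P024161: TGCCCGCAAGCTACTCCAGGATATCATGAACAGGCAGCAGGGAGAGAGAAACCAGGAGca
GHRH A_70_P024162: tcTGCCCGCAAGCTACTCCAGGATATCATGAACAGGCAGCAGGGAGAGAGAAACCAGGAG
GAL A_70_P001471: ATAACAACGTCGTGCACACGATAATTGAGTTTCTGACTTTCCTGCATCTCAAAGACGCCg
GAL A_70_P001472: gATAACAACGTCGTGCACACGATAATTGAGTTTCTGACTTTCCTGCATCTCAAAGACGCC
GRIN1 A_70_P002821: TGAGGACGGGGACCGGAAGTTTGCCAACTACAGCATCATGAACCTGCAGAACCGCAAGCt
GRIN1 A_70_P002822: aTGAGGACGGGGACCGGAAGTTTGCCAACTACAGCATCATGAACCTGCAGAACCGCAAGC
The pair for GHRH shares 58 bases, and the pairs for GAL and GRIN1 share 59 bases each. The 2 probes for oxytocin are also shifted by 1 base. Among the named genes with more than 1 probe, 45 of 78 probe pairs shared at least 15 bases.

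No probe passed the test across the array. With limma, 0 of 12937 probes (0%) had an adjusted p under 0.05 for estradiol+BCO against BCO, and the smallest adjusted p was 0.108. At an unadjusted p under 0.05 there were 1474 probes, 569 with a higher mean in estradiol+BCO fetuses (4.4% of those tested) and 905 with a lower mean (7%). For 213 probes (1.65%) all 4 estradiol+BCO arrays lay above all 4 BCO arrays, and for 333 probes (2.57%) all 4 lay below. The median difference over all probes was -0.02 and the median standard error was 0.16. The values that follow therefore describe these 8 fetuses, and none is a call. Probes at an unadjusted p under 0.05 with a lower mean were dimmer (median level -2.50) than those with a higher mean (-1.5), while the median GC content of the probe sequences was 45% in both sets and over all probes.

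Oxytocin, the peptide of magnocellular neurons that acts on uterus, mammary gland and brain, showed the widest gap between the groups of any neuropeptide gene measured. OXT read 2.77, 2.33, 3.06 and 3.48 in estradiol+BCO fetuses, against 1.41, -2.50, -1.23 and -3.38 in BCO fetuses. All 4 estradiol+BCO arrays lay above all 4 BCO arrays; the treated fetuses clustered tightly, whereas the BCO fetuses were widely spread, with replicate 1 nearest to the treated range. The difference was 4.33 ± 0.90 (SE, 4 against 4), about 20.2-fold, with an adjusted p of 0.137. It was 3.09 on slide 1 and 5.57 on slide 2. As single arrays were left out it ranged from 3.72 to 5.27. The highest value came without BCO replicate 1, the BCO array nearest the treated range, with an adjusted p of 0.0334. In no other alternative did OXT have an adjusted p under 0.05. The sham groups lay between, at 1.27 ± 0.53 in estradiol fetuses and 1.28 ± 1.64 in control fetuses (SD, n = 4 each). The oxytocin receptor gene OXTR was dim, at -6.91 ± 0.62 in estradiol+BCO and -6.58 ± 0.92 in BCO fetuses (SD, n = 4 each), and the difference of -0.32 ± 0.47 was smaller than its error.

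Galanin, a peptide of many hypothalamic neurons that is known to respond to estrogen in rodents, also separated the groups. GAL read -0.77, -0.33, -2.31 and -1.13 in estradiol+BCO fetuses, against -2.65, -3.52, -2.83 and -4.09 in BCO fetuses. The ranges did not overlap, although estradiol+BCO replicate 3 came close to the highest BCO array. The difference was 2.14 ± 0.50, or 2.54 on slide 1 and 1.74 on slide 2, with an adjusted p of 0.162. Gastrin-releasing peptide, a bombesin-like peptide, read -2.05, -2.24, -2.05 and -1.63 in estradiol+BCO fetuses, against -2.65, -3.54, -3.04 and -2.50 in BCO fetuses. GRP thus did not overlap either, and its difference of 0.94 ± 0.29 was nearly the same on slide 1 (0.95) and slide 2 (0.93), with an adjusted p of 0.269.

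**Figure D1:**
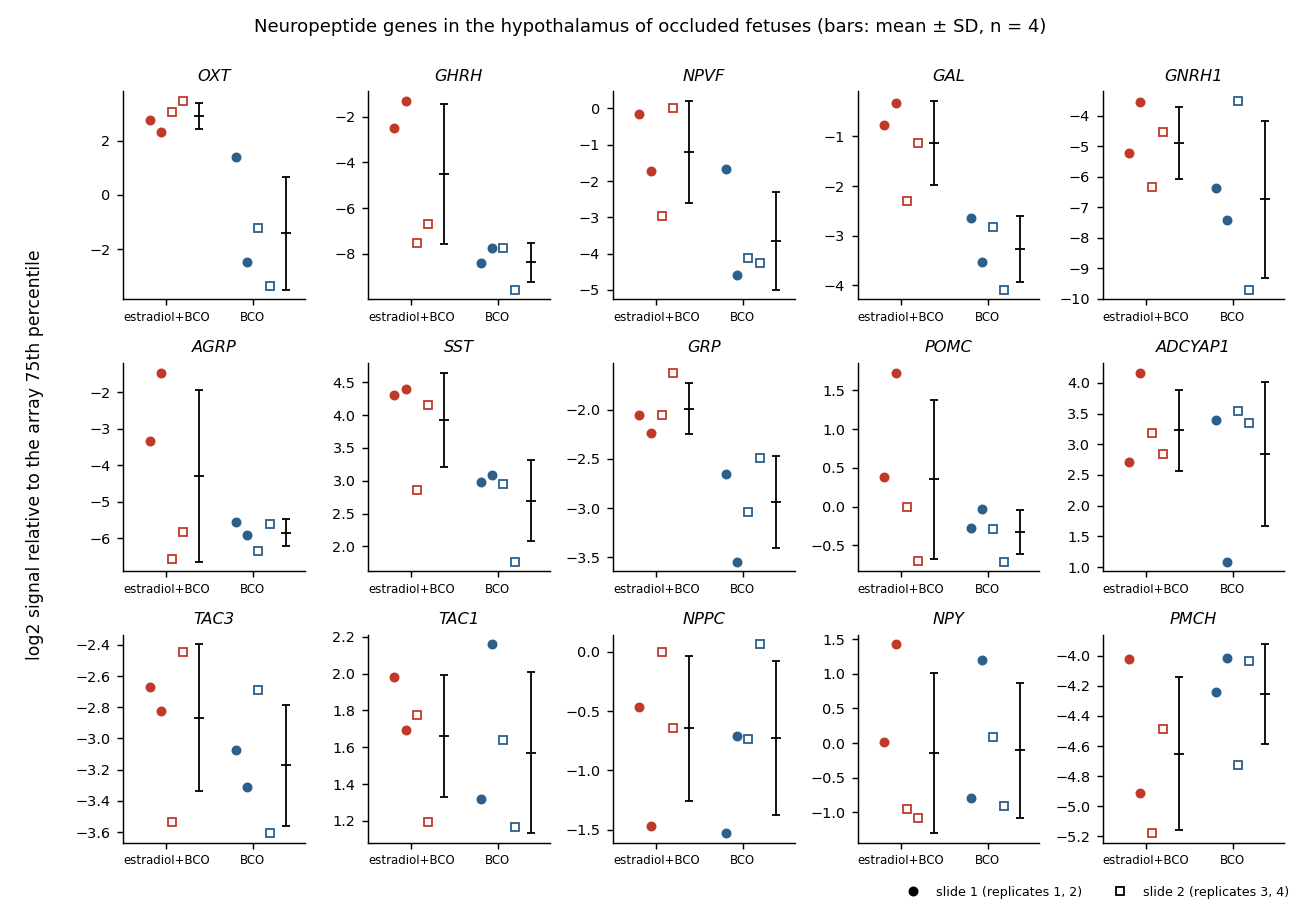
Log2 signal relative to the array's 75th percentile of the 15 measured neuropeptide genes, 1 point per fetus, estradiol+BCO left and BCO right, ordered by the size of the difference, each panel with its own vertical axis. The bar beside each group is the mean ± SD of 4 arrays, and the groups do not overlap for OXT, GAL and GRP. GHRH was not well above background in BCO fetuses, where its points mark a bound only.

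Among the peptides that govern the pituitary, growth hormone-releasing hormone was the most uneven. GHRH read -2.49, -1.30, -7.53 and -6.72 in estradiol+BCO fetuses, against -8.40, -7.77, -7.74 and -9.58 in BCO fetuses. The separation was wide on slide 1, while both slide 2 treated fetuses had values near those of BCO fetuses. GHRH was well above background on 3 of 4 estradiol+BCO arrays and on 0 of 4 BCO arrays (measured means -4.51 and -8.37, adjusted p = 0.310). The treated mean was 6.86-fold above the dimmest signal that counts as above background on the BCO arrays. That mean includes a treated array not well above background and rests on the slide 1 fetuses, so the fold is not a lower bound. Somatostatin, the peptide that restrains growth hormone release, read 4.31, 4.40, 2.86 and 4.15 in estradiol+BCO fetuses, against 2.98, 3.08, 2.96 and 1.77 in BCO fetuses. For SST 3 treated arrays stood above every BCO array and the remaining one lay within their range. The SST difference was 1.23 ± 0.39, adjusted p 0.275, and was similar on slide 1 (1.32) and slide 2 (1.14).

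The reproductive peptides GNRH1, which drives gonadotropin release, and NPVF, whose product inhibits it in sheep and other mammals, varied widely within groups. NPVF read -0.15, -1.71, -2.95 and 0.02 in estradiol+BCO fetuses, against -1.67, -4.59, -4.11 and -4.26 in BCO fetuses. Only BCO replicate 1 reached the treated range, and the difference was 2.46 ± 0.93 (adjusted p 0.355). GNRH1 read -5.22, -3.54, -6.34 and -4.53 in estradiol+BCO fetuses, against -6.36, -7.41, -3.52 and -9.72 in BCO fetuses. The ranges overlapped because BCO replicate 3 was the highest array of all, 2 BCO arrays were not well above background, and the GNRH1 difference of 1.84 ± 1.09 became 3.16 without that array and 0.91 without BCO replicate 4. TAC3, which encodes neurokinin B of the arcuate neurons that pace GnRH release, differed by 0.30 ± 0.40, between 0.07 and 0.55 as single arrays were left out.

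Among the arcuate feeding peptides, the AGRP values of treated fetuses differed by slide. AGRP, which promotes feeding, read -3.33, -1.47, -6.58 and -5.82 in estradiol+BCO fetuses, against -5.55, -5.90, -6.35 and -5.60 in BCO fetuses. Both slide 1 treated fetuses stood above all BCO fetuses and both slide 2 treated fetuses stood among or below them. The AGRP difference was 3.33 on slide 1 and -0.22 on slide 2, 1.55 ± 1.02 over both, and 0.89 without estradiol+BCO replicate 2. POMC, the precursor of melanocortins and ACTH, differed by 0.68 ± 0.47 and by 0.29 without the same array. NPY, the other orexigenic arcuate peptide, differed by -0.04 ± 0.68, and PMCH, the precursor of melanin-concentrating hormone, by -0.40 ± 0.28.

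Over the whole neuropeptide list, 13 of 15 measured genes had a higher mean in estradiol+BCO fetuses, and the median difference was 0.94 against -0.02 over all probes. At an unadjusted p under 0.05 there were 6 genes higher and 0 lower, beside 4.4% and 7% of all probes. For 4 genes, OXT, GAL, GRP and GHRH, all treated arrays lay above all BCO arrays, beside 1.65% of all probes, but the BCO values of GHRH and 1 of its treated values were not well above background and have no order among themselves. The list median was 1.21 on slide 1 and 0.16 on slide 2, and it ranged from 0.78 to 1.1 as single arrays were left out. The remaining members, TAC1, NPPC and ADCYAP1, differed by 0.09 ± 0.24, 0.08 ± 0.28 and 0.38 ± 0.46, with -0.23 at the dimmer TAC1 probe. Summed over the list on the linear scale relative to the 75th percentile, the signal was 31.4 to 56.0 in estradiol+BCO fetuses and 18.6 to 26.2 in BCO fetuses, without overlap. Bright genes such as SST, ADCYAP1 and OXT carry most of this sum. Dim genes such as GHRH, AGRP, GNRH1 and GRP add little, so it does not describe the list gene by gene. The same sum was 35.0 to 65.8 in estradiol fetuses and 35.3 to 57.7 in control fetuses. Against the same control arrays, the median difference of the 15 genes was -0.45 for estradiol+BCO and -1.55 for BCO, comparisons that share those controls.

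Markers of neighbouring tissue were read beside these values, since the amount of each hypothalamic nucleus in a dissection is not recorded in the labels. The 2 measured thalamic and telencephalic markers summed to 0.33 to 0.53 in estradiol+BCO fetuses and 0.34 to 0.56 in BCO fetuses. The 6 measured pituitary genes summed to 3.90 to 6.59 in estradiol+BCO fetuses and 3.73 to 5.96 in BCO fetuses. LHB, with mean log2 signals of 2.28 and 2.04, carried most of that sum. CGA, another of the 6, was uneven: it read -0.01 on BCO replicate 1 and -7.46 to -6.52 on the other BCO arrays. In estradiol+BCO fetuses CGA read -9.40 to -5.16. The 3 measured transcription factors of hypothalamic nuclei summed to 0.12 to 0.29 in estradiol+BCO fetuses and 0.07 to 0.33 in BCO fetuses. All 3 sets overlapped between the groups. Per gene, the factors had a median difference of 0.59, which is the value of ISL1. One of those factors, NR5A1, which specifies the ventromedial nucleus, read -6.67, -6.18, -7.70 and -9.07 in estradiol+BCO fetuses, against -9.38, -8.90, -9.57 and -9.58 in BCO fetuses. It was well above background on 2 of 4 estradiol+BCO arrays and on 0 of 4 BCO arrays, so no fold is given for it. ISL1, a factor of arcuate neurons, differed by 0.59 ± 0.50, with 0.96 without BCO replicate 2 and 0.12 without BCO replicate 4, and ARNT2, a partner of the neuroendocrine factor SIM1, by -0.10 ± 0.14, with 0.41 at a dimmer probe that shares 59 bases. The part of dissection in the neuropeptide values was not tested.

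**Figure D2:**
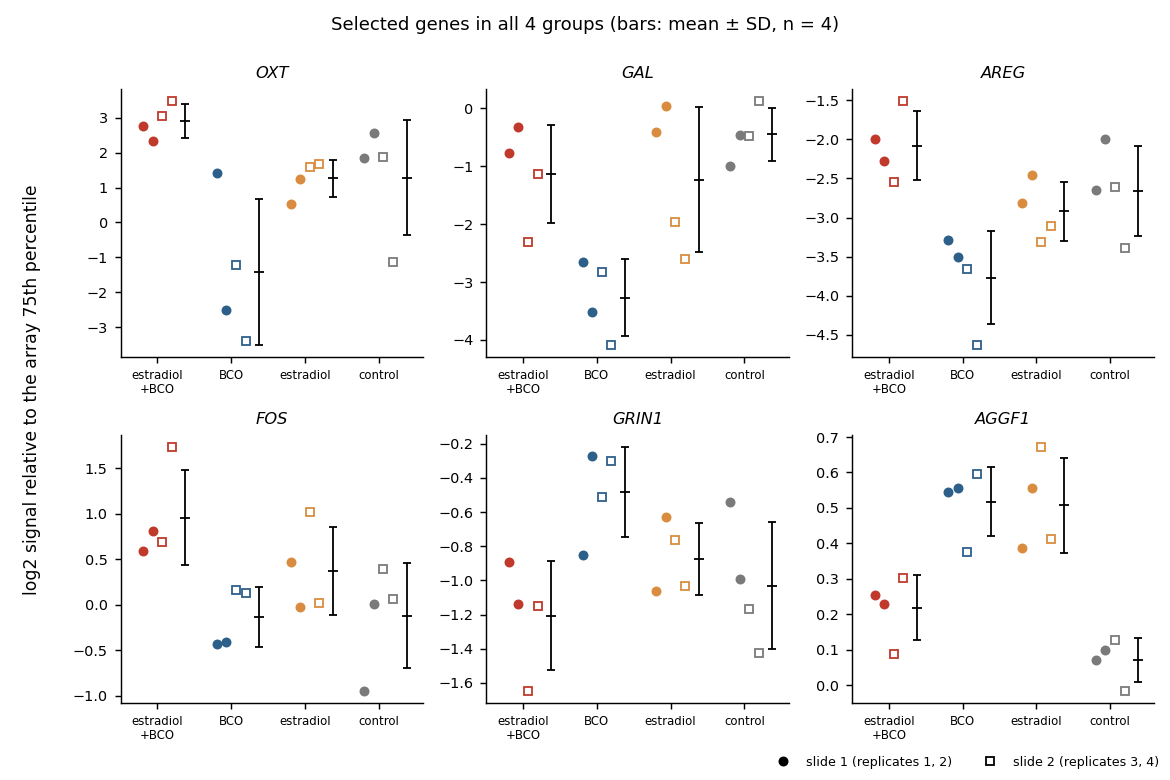
Log2 signal relative to the array's 75th percentile of OXT, GAL, AREG, FOS, GRIN1 and AGGF1 (brightest probe of each) in estradiol+BCO, BCO, estradiol and control fetuses, 1 point per fetus, with the mean ± SD of 4 arrays beside each group. For OXT, GAL and AREG the BCO fetuses form the lowest group, and for AGGF1 the BCO and estradiol fetuses stand above estradiol+BCO and control fetuses.

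Amphiregulin, a ligand of the epidermal growth factor receptor and an estrogen target in breast and uterus, had the lowest p of the named genes with a higher mean. AREG read -2.0, -2.28, -2.54 and -1.51 in estradiol+BCO fetuses, against -3.29, -3.50, -3.65 and -4.63 in BCO fetuses. The groups were clearly apart, the lowest treated array standing well above the highest BCO array. The difference was 1.69 ± 0.29, about 3.22-fold, and was 1.25 on slide 1 and 2.12 on slide 2, with an adjusted p of 0.116. AREG averaged -2.92 ± 0.38 in estradiol fetuses and -2.66 ± 0.57 in control fetuses (SD, n = 4 each). The estradiol difference in occluded fetuses exceeded that in sham fetuses by 1.95, with an adjusted p of 0.137 for that contrast.

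Of 12 measured members of the list of estrogen signalling and responsive genes 2 had a higher mean and 10 a lower one, with a median difference of -0.13, and AREG alone reached an unadjusted p under 0.05. The estrogen receptor gene ESR1 read -0.81, -0.07, -1.53 and -0.80 in estradiol+BCO fetuses, against -2.07, -1.98, -0.53 and -2.34 in BCO fetuses. BCO replicate 3 was the exception among otherwise lower BCO values, and the difference was 0.93 ± 0.41 (adjusted p 0.423), or 1.58 on slide 1 and 0.27 on slide 2, and 1.41 without BCO replicate 3. ESR2, the beta receptor, was dim and differed by 0.54 ± 0.33, with 0.30 without BCO replicate 1 and 0.89 without BCO replicate 2. PGR, the progesterone receptor gene and a classical estrogen target, differed by -0.19 ± 0.40. The thyroid hormone receptor gene THRB read -3.21, -3.28, -3.51 and -3.08 in estradiol+BCO fetuses, against -2.97, -2.37, -3.08 and -2.98 in BCO fetuses. These ranges just failed to overlap, with a difference of -0.42 ± 0.15 and an adjusted p of 0.335.

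In the stress axis, CRHBP, whose product binds corticotropin-releasing hormone, differed by 0.67 ± 0.28 (adjusted p 0.410) and by 0.38 without estradiol+BCO replicate 2. NR3C1, the glucocorticoid receptor gene, differed by -0.14 ± 0.19, and CPE, which trims prohormones in secretory granules, by -0.21 ± 0.11. Of 10 measured genes of this list 8 had a lower mean, with a median of -0.16. The neuropeptide and hormone receptor list showed no lean: 6 of 15 genes had a higher mean and the median was -0.01, with 0 at an unadjusted p under 0.05.

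FOS, the immediate early transcription factor gene, was the member of its class that separated the groups. FOS read 0.59, 0.81, 0.69 and 1.74 in estradiol+BCO fetuses, against -0.43, -0.41, 0.16 and 0.13 in BCO fetuses. Every treated array lay above every BCO array, with estradiol+BCO replicate 4 the highest. The difference was 1.1 ± 0.27, about 2.14-fold, and was alike on slide 1 (1.12) and slide 2 (1.07), with an adjusted p of 0.183. The other 3 FOS probes, of which only 2 share sequence with each other, differed by 0.70, 0.81 and 0.90. BCO fetuses stood at the control level, with means of -0.14 ± 0.33 in BCO and -0.12 ± 0.58 in control fetuses (SD, n = 4 each). In estradiol fetuses FOS averaged 0.37 ± 0.48 (SD, n = 4). The estradiol difference in occluded fetuses exceeded that in sham fetuses by 0.60, with an adjusted p of 0.726 for that contrast. JUNB and EGR1, further immediate early genes, differed by 0.27 ± 0.41 and 0.08 ± 0.14, and both had a lower mean in estradiol+BCO fetuses on slide 2 (-0.21 and -0.12). A dimmer EGR1 probe that shares 22 bases gave 0.94. Of 5 measured genes of the class 3 had a higher mean, with a median of 0.08.

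**Figure D3:**
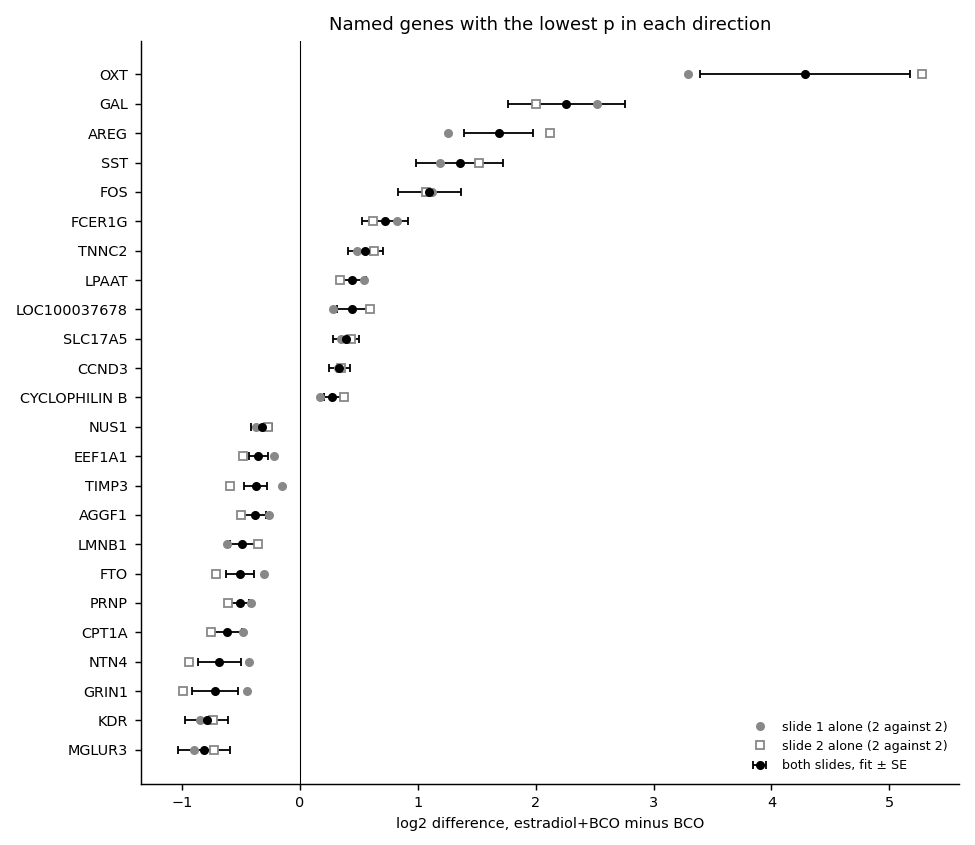
Log2 difference, estradiol+BCO minus BCO, for the 12 named genes with the lowest p in each direction, with the fitted value ± SE (black) and the difference within slide 1 (grey circle) and slide 2 (open square). All 24 have the same sign on both slides, beside 6908 of 12937 probes tested, and none has an adjusted p under 0.05. The genes were chosen by their p over both slides, which favours equal signs, so this agreement is not a replication.

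Apart from OXT, GAL, AREG, SST and FOS, the 12 named genes with the lowest p and a higher mean were of mixed function. FCER1G, the signalling chain of Fc receptors on myeloid cells, differed by 0.72 ± 0.20, and TNNC2, the fast muscle troponin C, by 0.56 ± 0.15. Sialin (SLC17A5), CCND3, which encodes cyclin D3, and LPAAT, an acyltransferase of phospholipid synthesis, differed by 0.39, 0.33 and 0.44. A dimmer LPAAT probe, sharing 59 bases with the one shown, gave 1.13. CYCLOPHILIN B, a chaperone of the secretory pathway, differed by 0.27 ± 0.07, and LOC100037678, described in the files as a serine protease, by 0.44 ± 0.13. Adjusted p-values of the 12 ran from 0.116 to 0.255. The 12 were chosen for their p, so their values are a description, and for 5 of them the probe shown is the brightest of the gene.

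Among genes with a lower mean in estradiol+BCO fetuses, several belong to glutamate signalling. GRIN1, the obligatory subunit of NMDA receptors, read -0.89, -1.14, -1.65 and -1.15 in estradiol+BCO fetuses, against -0.85, -0.27, -0.51 and -0.30 in BCO fetuses. The groups met at -0.85 without crossing. The GRIN1 difference was -0.72 ± 0.19, or -0.45 on slide 1 and -0.99 on slide 2, with an adjusted p of 0.220. The metabotropic receptor gene MGLUR3 read -3.60, -3.32, -3.67 and -3.91 in estradiol+BCO fetuses, against -3.01, -2.11, -3.00 and -3.11 in BCO fetuses. All 4 treated arrays were lower, and the difference was -0.82 ± 0.22 (adjusted p 0.220). The AMPA receptor genes GRIA4 and GRIA3 and the glutamate dehydrogenase gene GLUD1 differed by -0.33 ± 0.14, -0.30 ± 0.13 and -0.35 ± 0.15, and GLUD1 by -0.20 without BCO replicate 3. All 7 measured genes of the glutamate and GABA list had a lower mean, with a median of -0.30 that ranged from -0.38 to -0.22 as single arrays were left out. At an unadjusted p under 0.05 there were 4 lower and 0 higher, beside 7% and 4.4% of all probes.

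Most vessel genes and all 9 matrix genes measured had lower means. KDR, the main endothelial receptor for VEGF, read -4.70, -5.11, -5.01 and -4.82 in estradiol+BCO fetuses, against -4.22, -3.90, -3.92 and -4.44 in BCO fetuses at the dimmest of its 4 probes. There the groups did not overlap and the difference was -0.79 ± 0.18, while at the brightest probe, from another stretch, it was -0.31. AGGF1, an angiogenic factor gene, read 0.26, 0.23, 0.09 and 0.30 in estradiol+BCO fetuses, against 0.55, 0.56, 0.37 and 0.60 in BCO fetuses. This brightest probe and a probe sharing no sequence with it gave -0.30 ± 0.09 and -0.38 ± 0.09, and neither overlapped between groups. AGGF1 averaged 0.51 ± 0.13 in estradiol fetuses and 0.07 ± 0.06 in control fetuses (SD, n = 4 each). VEGFA, the ligand of KDR, differed by -0.13 ± 0.20. Of 16 measured endothelial and vessel genes 11 had a lower mean, beside 6951 of 12937 probes tested, and the list median was -0.16. The sign was the same on both slides for 7 of the 16, beside 6908 of 12937 probes. At an unadjusted p under 0.05 there was 1 lower and 0 higher, beside 7% and 4.4% of all probes. The summed signal of the list was 7.57 to 9.42 in estradiol+BCO fetuses and 9.81 to 10.9 in BCO fetuses. It was 9.54 to 11 in estradiol fetuses and 9.38 to 9.85 in control fetuses.

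The matrix list had 0 of 9 genes with a higher mean and a median of -0.34, which was -0.19 without estradiol+BCO replicate 1. The summed signal of the matrix list overlapped, at 8.34 to 13.5 in estradiol+BCO fetuses and 9.71 to 13.3 in BCO fetuses. TIMP3, an inhibitor of matrix proteases, differed by -0.38 ± 0.10 (adjusted p 0.220) and MMP2, a gelatinase, by -0.34 ± 0.15 and -0.22 without BCO replicate 4. Within slides TIMP3 gave -0.16 on slide 1 and -0.59 on slide 2, and MMP2 gave -0.0006 and -0.68. NTN4, a netrin of vascular basement membranes, differed by -0.69 ± 0.18 without overlap. The choroid plexus list, a check on dissection near the third ventricle, had 4 measured genes, all with a lower mean at the brightest probe: TTR -0.94 ± 1.03, CLDN1 -0.51 ± 0.21, IGF2 -0.47 ± 0.78 and IGFBP2 -0.29 ± 0.31. The dimmer CLDN1 probe, which shares 40 bases with the brighter one, gave 0.65. The list's summed signal was 7.66 to 19.1 in estradiol+BCO fetuses and 13.6 to 26.0 in BCO fetuses, with TTR highest in BCO replicate 2 at 3.84. The TTR difference was -0.04 without that array. The share of choroid plexus and meningeal tissue in the matrix values was not tested.

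Of 23 measured cytokine, chemokine and inflammation genes 19 had a higher mean in estradiol+BCO fetuses, with a median of 0.46 that was 0.62 on slide 1 and -0.03 on slide 2. The median was 0.23 without estradiol+BCO replicate 1, 0.30 without BCO replicate 1 and 0.30 without BCO replicate 2. At an unadjusted p under 0.05 there were 4 genes higher and 0 lower, beside 4.4% and 7% of all probes. A higher mean was found for 5986 of 12937 probes tested. The summed signal of the list overlapped, at 54.7 to 67.9 in estradiol+BCO fetuses and 42.1 to 76.8 in BCO fetuses. IL1B, the gene of a leading inflammatory cytokine, read -1.94, -1.96, -2.47 and -2.19 in estradiol+BCO fetuses, against -2.66, -2.48, -2.53 and -2.73 in BCO fetuses. The treated arrays were all higher, although estradiol+BCO replicate 3 and BCO replicate 2 nearly met, and the difference was 0.46 ± 0.15 (adjusted p 0.301). IL12A and IL6 differed by 0.75 ± 0.27 and 0.41 ± 0.18 with overlap, and IL6 by 0.25 without estradiol+BCO replicate 1. The dimmer IL12A probe, sharing 30 bases with the brighter one, gave 0.04. IL1RN, the interleukin 1 receptor antagonist gene, was well above background on 2 of 4 estradiol+BCO arrays and on 0 of 4 BCO arrays. No fold is given for it, and the measured means were -6.32 and -7.75 (adjusted p = 0.371). The IL1RN value leaned on estradiol+BCO replicate 1: the measured difference of 1.43 was 0.81 without that array, and it was 2.61 on slide 1 and 0.25 on slide 2. TNF and the prostaglandin synthase gene PTGS2 differed by 0.50 ± 0.30 and 0.69 ± 0.57, and both had a lower mean in estradiol+BCO fetuses on slide 2. The TNF difference was 0.23 without estradiol+BCO replicate 1. The dimmer PTGS2 probe gave 1.22, and 0.81 on slide 2. PTGDS, a prostaglandin D synthase of glia and meninges, differed by 0.31 ± 0.13.

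The interferon-stimulated genes lay with a single fetus. They were singled out after their values were seen. ISG15, a ubiquitin-like protein induced by interferon, read 7.12, 1.95, -0.37 and 0.47 in estradiol+BCO fetuses, against 0.78, -0.42, 0.54 and 0.27 in BCO fetuses. The antiviral gene MX1 read 5.56, 1.65, 0.28 and -0.20 in estradiol+BCO fetuses, against 1.14, -0.10, 0.91 and -0.36 in BCO fetuses. Estradiol+BCO replicate 1 was the highest array for both, replicate 2 was modestly high, and the slide 2 treated fetuses were at the BCO level. MX2 and the chemokine gene CXCL10 read 4.45 and 3.82 on estradiol+BCO replicate 1. Their highest values on the other 7 arrays were -0.26 and -0.65. Differences of 2.0 for ISG15, 1.42 for MX1, 1.62 for MX2 and 1.33 for CXCL10 became 0.39, 0.26, 0.31 and -0.12 without that array.

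**Figure D4:**
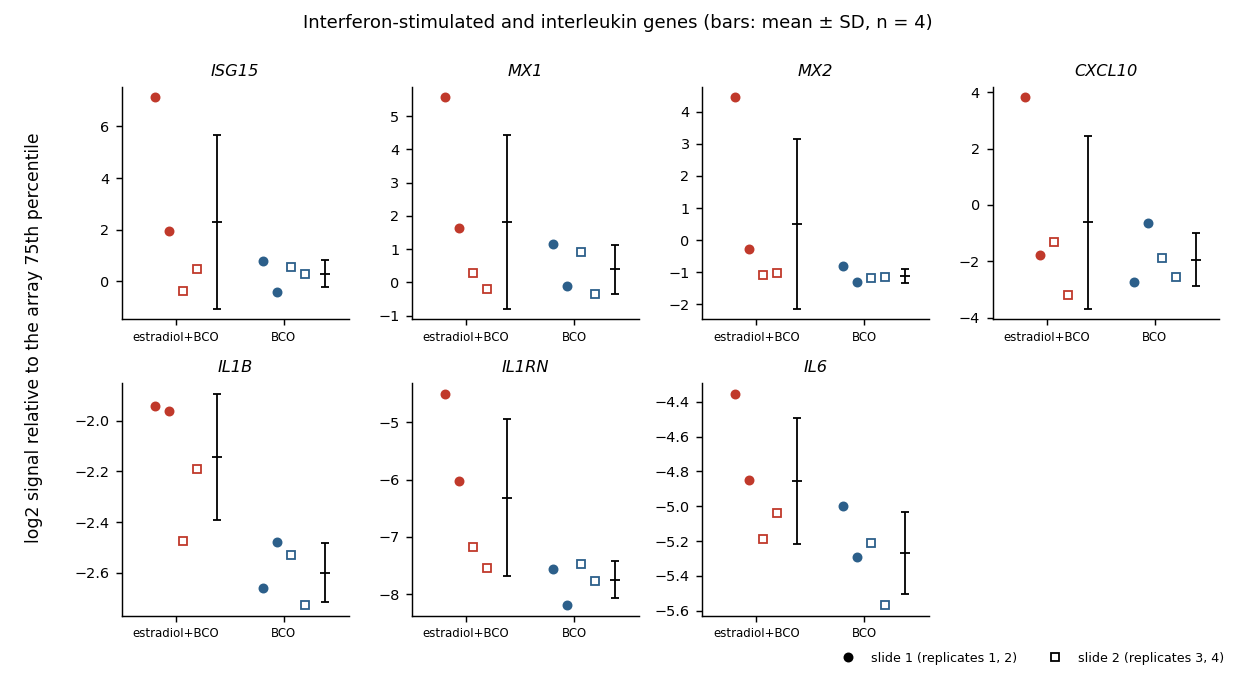
Log2 signal relative to the array's 75th percentile of 4 interferon-stimulated genes and of IL1B, IL1RN and IL6, 1 point per fetus, estradiol+BCO left and BCO right, each panel with its own vertical axis, with the mean ± SD of 4 arrays. Estradiol+BCO replicate 1, the highest filled circle of the left group, carries the interferon-stimulated genes, with 7.12 for ISG15.

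The innate immune list, which holds ISG15, MX1 and MX2, had 11 of 17 genes with a higher mean and a median of 0.30, which was 0.08 without that array. IRF1, an interferon-regulated transcription factor gene, differed by 1.72 ± 0.59 with BCO replicate 3 dropped for a flagged spot, and by 1.31 without estradiol+BCO replicate 1. It differed by 2.81 on slide 1 and by 0.01 on slide 2, where BCO replicate 4 was the only BCO array left. TLR7, a sensor of single-stranded RNA, and IFNAR1, a chain of the type I interferon receptor, differed by 0.54 ± 0.23 and 0.23 ± 0.10. IFNAR1 did not overlap, reading 3.17, 3.23, 3.40 and 3.31 in estradiol+BCO fetuses, against 3.04, 2.99, 3.13 and 3.01 in BCO fetuses.

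For microglial and leukocyte genes the list median was similar on both slides, and 6 of 8 genes had the same sign on both. The median level of the list on each array overlapped, at -4.52 to -3.86 in estradiol+BCO fetuses and -4.52 to -3.74 in BCO fetuses. Of 8 measured genes 6 had a higher mean, with a median of 0.31, or 0.34 on slide 1 and 0.38 on slide 2, and 0.20 without estradiol+BCO replicate 1. The integrin gene ITGB2 differed by 0.56 ± 0.18, the costimulatory gene CD86 by 0.59 ± 0.20 and osteopontin (SPP1) by 0.39 ± 0.17. These were the 3 genes higher at an unadjusted p under 0.05, with 0 lower, beside 4.4% and 7% of all probes. Of the 2 genes with a lower mean, the lowest difference was -0.44. At a dimmer SPP1 probe that shares 29 bases the difference was 0.08. The summed signal of the list was 1.23 to 1.80 in estradiol+BCO fetuses and 0.86 to 1.30 in BCO fetuses. It was 1.30 to 1.43 in estradiol fetuses and 1.17 to 1.56 in control fetuses.

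Among glial genes, AQP4, the astrocyte water channel gene, read 5.92, 5.82, 5.28 and 5.78 in estradiol+BCO fetuses, against 5.24, 4.79, 5.40 and 5.14 in BCO fetuses. Only BCO replicate 3 exceeded a treated array, and the difference was 0.56 ± 0.17 (adjusted p 0.262). FGFR3, a growth factor receptor gene of radial glia, differed by -0.32 ± 0.13 and GFAP by -0.16 ± 0.27, so the 5 measured astrocyte genes had no common direction (1 higher, 4 lower).

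Further lower means were those of metabolic and structural genes. CPT1A, which imports long-chain fatty acids into mitochondria, read 0.01, -0.32, -0.75 and -0.55 in estradiol+BCO fetuses, against 0.34, 0.31, 0.16 and 0.05 in BCO fetuses. At this dimmer probe the ranges did not overlap and the difference was -0.62 ± 0.12 (adjusted p 0.137). At the brighter probe, which shares 59 bases, the difference was -0.68 but the ranges overlapped. There estradiol+BCO replicate 1 read 0.04 and BCO replicate 4 read 0.001. FTO, an RNA demethylase gene expressed in hypothalamus, read -0.46, -0.51, -1.10 and -0.61 in estradiol+BCO fetuses, against -0.17, -0.20, -0.19 and -0.10 in BCO fetuses, a difference of -0.51 ± 0.12 (adjusted p 0.168). LMNB1, encoding lamin B1 of the nuclear envelope, differed by -0.49 ± 0.10 and by -0.55 at its second probe. COX5A, a subunit of cytochrome c oxidase, differed by -0.78 ± 0.34 without overlap, and by -0.46 without estradiol+BCO replicate 3. NUS1, needed for dolichol synthesis, differed by -0.33 ± 0.09, and the kinase gene AKT1 by -0.23 ± 0.11. PTCH1, the Hedgehog receptor gene, differed by -0.58 ± 0.18.

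PRNP, the prion protein gene, had the lowest p of all named probes but its probes disagreed. At the dimmest probe it read -3.75, -3.74, -3.70 and -3.79 in estradiol+BCO fetuses, against -3.44, -3.22, -3.05 and -3.23 in BCO fetuses, a difference of -0.51 ± 0.08 (adjusted p 0.108). The probe that overlaps it gave -0.33, while the 2 brighter probes, from other stretches, gave 0.22 and 0.27. EEF1A1, a translation elongation factor gene, differed by -0.35 ± 0.08 at its dimmest probe and by -0.04 and -0.05 at the other 2. RPS6, a ribosomal protein gene, differed by -0.21 ± 0.08 without overlap, and ATF4, a transcription factor gene of the unfolded protein response, by 0.37 ± 0.12 without overlap. SLC6A4, the serotonin transporter gene, was at background level on all 8 arrays.

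**Figure D5:**
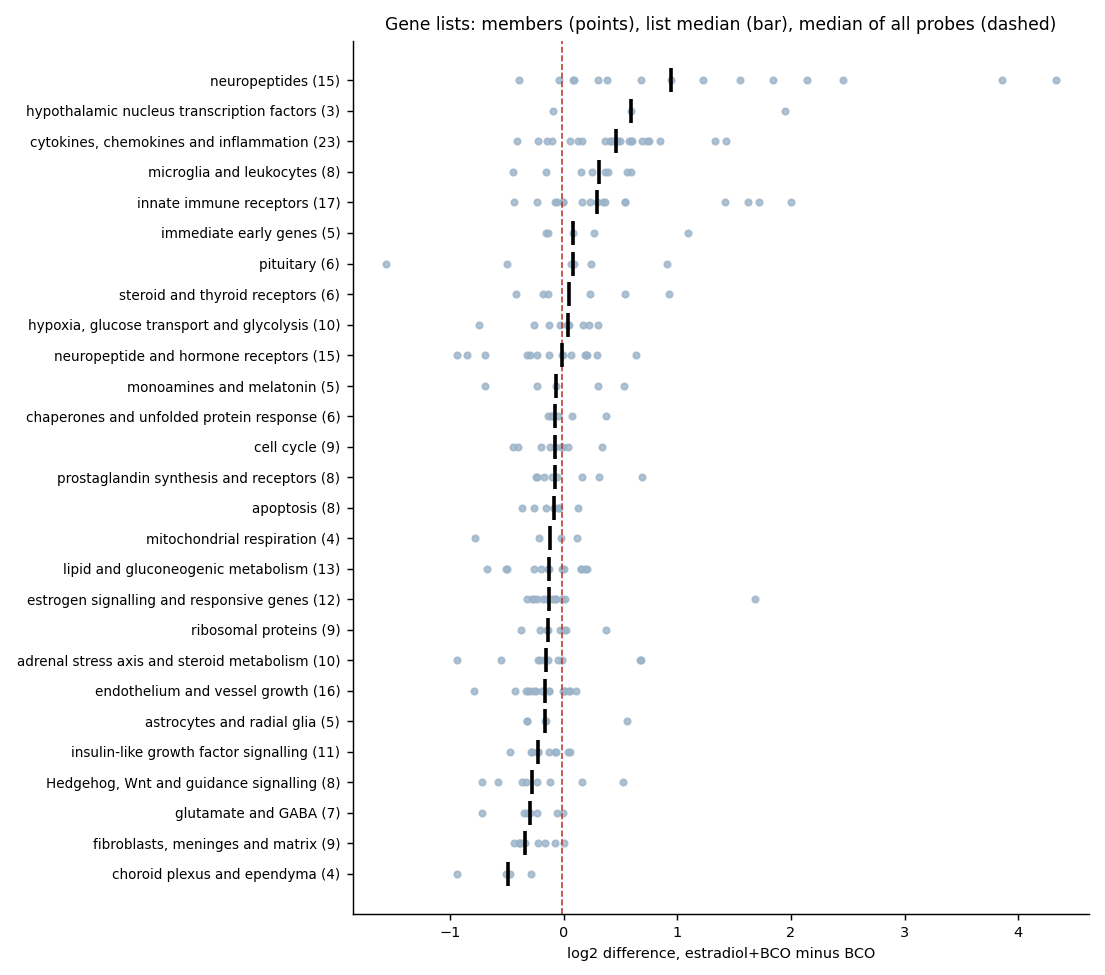
Log2 difference, estradiol+BCO minus BCO, of every measured member (points) of the 27 gene lists with at least 3 measured genes, with the list median as a black bar, the number of genes in parentheses and the median over all probes as a dashed line at -0.02. The neuropeptide median lies at 0.94, the glutamate and GABA median at -0.30, and the choroid plexus median at -0.49.

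Lists of other processes had medians between -0.28 and 0.08, beside -0.02 over all probes. The median was 0.03 for 10 genes of hypoxia and glycolysis, -0.08 for 9 cell cycle genes, -0.09 for 8 apoptosis genes and -0.08 for 6 chaperone and unfolded protein genes. It was -0.13 for 13 lipid and gluconeogenic genes and -0.22 for 11 genes of insulin-like growth factor signalling. It was -0.14 for 9 ribosomal protein genes, -0.12 for 4 genes of mitochondrial respiration, -0.08 for 8 genes of prostaglandin synthesis and reception and 0.08 for 6 pituitary genes. The 8 genes of Hedgehog, Wnt and guidance signalling had a median of -0.28, which was -0.16 without BCO replicate 3 and -0.15 without estradiol+BCO replicate 4. At an unadjusted p under 0.05, 1 gene was higher in each of the cell cycle (CCND3), chaperone (ATF4), ribosomal and prostaglandin lists. Lower were 2 lipid genes and 1 gene in each of the insulin-like growth factor, mitochondrial, ribosomal and Hedgehog lists. The hypoxia, apoptosis and pituitary lists had 0. Over all probes 4.4% were higher and 7% lower at that level.

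Whether the estradiol difference itself depended on occlusion was asked with the contrast of both estradiol differences. Of 12937 probes, 3 (0.0232%) passed an adjusted p of 0.05, all unnamed, and 1097 had an unadjusted p under 0.05. Probe A_70_P055401 averaged -2.17 ± 0.14 in estradiol+BCO, -1.46 ± 0.21 in BCO, -1.21 ± 0.16 in estradiol and -1.80 ± 0.15 in control fetuses (SD, n = 4 each). Estradiol fetuses were thus above control fetuses, while estradiol+BCO fetuses were below BCO fetuses, and the contrast was -1.30 ± 0.16 (adjusted p 0.016). Probe A_70_P036801 showed the same order, with -0.69 ± 0.10 among occluded fetuses and 0.38 ± 0.10 among sham fetuses, and a contrast of -1.08 (adjusted p 0.016). Probe A_70_P005946 gave -0.42 ± 0.10 and 0.61 ± 0.10, and a contrast of -1.03. Among the neuropeptides the contrast was 4.35 for OXT (adjusted p 0.323) and 2.92 for GAL (adjusted p 0.199), both short of the threshold.

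The difference between estradiol+BCO and BCO was also compared between slides, each with 2 fetuses of each group. With limma 0 probes passed, the smallest adjusted p was 0.0809 and 829 probes had an unadjusted p under 0.05. Over all probes 6908 of 12937 had the same sign on both slides. Of the 15 neuropeptide genes 12 did.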

How the data were processed

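Total RNA of 16 fetal hypothalami had been labelled with Cy3 and hybridised to 1-colour Agilent sheep arrays. Per the file headers, Feature Extraction 10.1.1.1 with protocol GE1-v5_10_Apr08 made the deposited processed signal, an intensity after background subtraction, and the deposited flags (the other columns used) for outliers, saturation and signal well above background. The deposited series table of log2 values equalled log2 of that signal minus the median of each array, and served as an alternative.

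Here control spots and flagged spots were left out, spots of a probe were averaged, and log2 processed intensity minus the array's 75th percentile was taken. Probes well above background on at least 4 of 16 arrays were kept, 12937 of 15008. One limma 3.58.1 model (R 4.3.3) with 4 groups and slide as a block gave the estradiol+BCO minus BCO difference, the interaction with occlusion and the difference between slides, with Benjamini-Hochberg adjustment over all probes tested. The p-values measure the spread between the arrays of a group, and the number of arrays limits their precision. The workflow was tested on simulated data. Gene names came from the files and from the RefSeq gene table of assembly ARS-UI_Ramb_v3.0, used for names only. Of 15008 probes 1648 were named, 13352 had no name, and 8 with conflicting names were left unnamed.

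Named genes were the 12 with the lowest p in each direction, all measured neuropeptides, up to 4 members of each list with the lowest p, and a small panel. The brightest probe stood for a gene in lists. The members and lists were chosen with earlier results of these data known, and MX1, MX2, ISG15, CXCL10 and the unnamed interaction probes after their values were seen. Alternatives covered normalization, background correction, filters, blocks, slides and each array left out. Promoter and protein sequences were not used here, and some items are not reported here.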

Additional observations from a re-analysis of the deposited data

Results flagged for a closer look

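In 12 of 183 groups of 4 arrays, 1 array stood apart from the other 3 by a gap test, of which chance gives about 1 in 20 groups. On estradiol+BCO replicate 1, MX2 read 4.45 against -1.09 to -0.26 on the others of its group, FCER1G 0.68 against -0.07 to 0.03, and ATF4 0.93 against 0.39 to 0.46. On estradiol+BCO replicate 3, SST read 2.86 against 4.15 to 4.40 and ISL1 -3.41 against -2.20 to -1.97. On BCO replicate 1, NPVF read -1.67 against -4.59 to -4.11. On BCO replicate 2, ADCYAP1 read 1.09 against 3.34 to 3.54, MGLUR3 -2.11 against -3.11 to -3.00, and THRB -2.37 against -3.08 to -2.97. On BCO replicate 4, SST read 1.77 against 2.96 to 3.08, CD86 -3.84 against -3.10 to -2.94, and the brighter CPT1A probe 0.0011 against 0.38 to 0.39.

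The estradiol difference in occluded fetuses minus that in sham fetuses passed an adjusted p of 0.05 in limma for 3 unnamed probes, with -1.08 for A_70_P036801, -1.30 for A_70_P055401 and -1.03 for A_70_P005946.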

How the results depend on the processing

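Of 2658 alternative values for 89 gene results, 2612 kept their sign and their side of the threshold. In 3 cases an adjusted p under 0.05 appeared in an alternative, both OXT probes and PRNP without BCO replicate 1. As single arrays were left out, the OXT probes ranged from 3.72 to 5.27 and from 3.74 to 5.2, and PRNP from -0.57 to -0.46. The sign turned in 43 values of 22 genes. With slide 1 alone it turned for NPY (0.52), IGFBP2 (0.17), IGF2 (0.63), PGR (0.31) and GFAP (0.019). With slide 2 alone it turned for AGRP (-0.22), ADCYAP1 (-0.43), NR3C1 (0.10), JUNB (-0.21), PTGS2 (-0.24), EGR1 (-0.12), VEGFA (0.091), TNF (-0.035), ISG15 (-0.35), MX1 (-0.24) and CXCL10 (-0.047). With normexp background correction it turned for NPY (0.065) and SLC6A4 (-0.017), and with a gene's probes averaged for TAC1 (-0.070), ARNT2 (0.16), CLDN1 (0.070) and OXTR (0.061). Leaving out single arrays gave ranges across 0 of -0.49 to 0.23 for NPY, -0.037 to 0.29 for TAC1, -0.19 to 0.65 for ADCYAP1, -0.12 to 0.30 for NPPC, -0.062 to 0.56 for JUNB, -1.12 to 0.053 for IGF2, -0.47 to 0.15 for PGR, -0.033 to 0.19 for EGR1 and -0.12 to 2.11 for CXCL10. Of 810 alternative list medians, 21 lay beyond the spread. The cause of these changes was not tested.

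The count of probes passing for estradiol+BCO against BCO was 0 in the main setting, 14 with slide 2 alone (all higher) and 0 to 6 as single arrays were left out, with 6 without BCO replicate 1, 6 without BCO replicate 2 and 2 without BCO replicate 4. The interaction count of 3 became 1 without the slide block, 0 with slide 1 alone, 0 with slide 2 alone, 1 with normexp and 0 to 6 with single arrays left out, with 6 without BCO replicate 1 and 0 without BCO replicate 3, control replicate 4, estradiol replicate 2 or estradiol+BCO replicates 2, 3 or 4. The slide difference count of 0 became 3 with probes above background on all 16 arrays, and 0 to 124 with single arrays left out, with 124 without BCO replicate 4, 81 without estradiol+BCO replicate 2 and 53 without estradiol+BCO replicate 4. With the replicate block in place of slide the main count was 0 (smallest adjusted p 0.141) and the interaction count 3. Same-numbered arrays of both groups correlated in their deviations by 0.14, 0.005, 0.10 and 0.24, and by -0.11, -0.23, -0.12 and -0.031 after slide was removed, so the numbers are not taken as pairs. The interaction was not refitted on the 8 arrays alone, nor the slide difference under the alternatives on slide or block. Signals near background limit GHRH, NR5A1, IL1RN and SLC6A4.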
